A study of Mus musculus with 6 samples.

Results

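Transcripts of 10 genes that write, copy, remove or shield DNA methylation were followed in mouse oocytes that matured in culture, either untreated or in the presence of the antidiabetic drug metformin. The genes were picked by symbol and not by their values: the DNA methyltransferase genes Dnmt1, Dnmt3a and Dnmt3b, their cofactor gene Dnmt3l, the methylation-copying partner gene Uhrf1, the dioxygenase genes Tet1, Tet2 and Tet3, the glycosylase gene Tdg, and Dppa3, which encodes Stella. Each symbol matched 1 of the 55487 gene identifiers in the deposited table, and reads were counted for 9 of the 10 genes, all except Tdg. The study held 3 control libraries and 3 metformin libraries, all of oocytes. Per the labels, both groups came from mice primed with 10 IU of pregnant mare serum gonadotropin. After 46 to 48 h their germinal-vesicle oocytes were taken from antral follicles, denuded by pipetting and kept in M16 medium for 16 h until metaphase II, the metformin group with the drug added. The series title names aged mice. The labels give no age, strain or genotype, do not say how many oocytes made up a library, and list metformin at 10, 20 and 50 μM without saying which concentration was sequenced.

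DNA methylation is placed on unmarked cytosines by DNMT3A and DNMT3B, in the growing oocyte with DNMT3L as an essential cofactor, and is copied after each DNA replication by DNMT1, which UHRF1 recruits to hemimethylated sites. TET enzymes oxidise methylated cytosine, and TDG can excise the later oxidation products so that base excision repair restores an unmodified base. The mouse oocyte carries both sides of this balance into the zygote: DNMT1 from an oocyte promoter keeps imprints, TET3 oxidises mainly the paternal genome, and Stella protects maternal DNA from TET3 and keeps UHRF1 out of the nucleus.

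Total counts per library ranged from 8622281 to 10588292, and 19662 to 20212 genes had at least 1 read. The 11 oocyte markers summed to between 18282 and 20196 CPM (the usual count-per-library-size unit, here on library sizes scaled by TMM, the trimmed mean of M-values). The 12 cumulus and granulosa markers summed to between 65.5 and 77.8 CPM, with Amh, Foxl2 and Ptx3 at 0 in every library. Most of that sum came from Cyp19a1 (36.0 to 48.0 CPM), Nr5a2 (16.2 to 21.3 CPM) and Kitl (7.98 to 11.5 CPM). The 7 blood markers summed to 32.5 CPM in control 1 and to between 1.36 and 2.58 CPM in the other 5 libraries. The 6 stromal and endothelial markers summed to between 25.2 and 36.5 CPM, of which Pecam1 alone held 23.5 to 34.7 CPM. The collagen genes Col1a1 and Col1a2 had 25 and 20 counts in control 1, against 0 to 1 and 0 to 4 in the other 5 libraries. Control 1 thus stood apart in these 2 stromal genes as well as in blood markers, but not in all stromal markers. Col3a1 had 3 counts in control 1 and 0 to 4 in the others, Dcn had 25 against 7 to 21, and Pecam1 was highest in metformin 1. Without control 1, 0 members were called. The labels name no spike-in, so fewer oocytes and less RNA per oocyte cannot be told apart.

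For 4 of the members the counts have to be read with a near copy in view, and the stretches below show how little separates 3 of these genes from theirs. Matches of at least 400 bases at 90% identity or more were found for Dppa3, Uhrf1, Dnmt3b and Tdg among the transcripts of the GENCODE M21 annotation (assembly GRCm38, the assembly that mm10 names). Each pair is a 120-base window of the member's coding part, 5′ to 3′, chosen as the ungapped window with the most differences, and capitals mark the bases that differ.
Dppa3: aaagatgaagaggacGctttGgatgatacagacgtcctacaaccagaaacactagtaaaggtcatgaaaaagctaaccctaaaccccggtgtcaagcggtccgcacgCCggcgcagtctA
Dppa3-ps: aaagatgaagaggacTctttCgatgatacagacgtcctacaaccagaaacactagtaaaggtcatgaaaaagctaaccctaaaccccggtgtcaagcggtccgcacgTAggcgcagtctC
Uhrf1: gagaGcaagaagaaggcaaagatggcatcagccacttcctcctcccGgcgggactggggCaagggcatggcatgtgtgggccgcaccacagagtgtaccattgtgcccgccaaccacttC
Gm5648: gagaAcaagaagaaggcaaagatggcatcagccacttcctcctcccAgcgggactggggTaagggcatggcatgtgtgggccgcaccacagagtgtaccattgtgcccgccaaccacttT
Tdg: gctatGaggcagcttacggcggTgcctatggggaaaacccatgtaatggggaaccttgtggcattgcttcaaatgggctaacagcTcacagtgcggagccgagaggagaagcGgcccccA
Tdg-ps: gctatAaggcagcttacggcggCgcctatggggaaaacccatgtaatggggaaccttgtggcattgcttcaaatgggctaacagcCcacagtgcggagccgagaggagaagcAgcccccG

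Even in these windows 5 of 120 bases differed for Dppa3, 4 for Uhrf1 and 5 for Tdg. The transcribed processed pseudogene Dppa3-ps on chromosome X matched 451 bases of the Dppa3 transcript at 98.2% identity, and Gm5648, a processed pseudogene also on chromosome X, matched 1590 bases of Uhrf1 at 98.3%. Both had reads of their own: Dppa3-ps held 4030, 4072 and 4590 counts in controls 1 to 3 and 4100, 4801 and 6366 in metformin 1 to 3, or 6.01% of the Dppa3 total. Gm5648 held between 47 and 108 counts per library, or 3.40% of the Uhrf1 total. Dnmt3c, a rodent DNA methyltransferase gene that arose by duplication of Dnmt3b, matched 1434 bases of it at 93.9% and held between 5 and 21 counts. How reads that match several genes were treated is not given in the sources used here, so the division of reads within these pairs is uncertain.

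The 6 remaining members had no such relative. Of the 50-base words of the longest coding transcript, 100% occurred in no other gene's transcripts for Dnmt1, Dnmt3a, Dnmt3l, Tet2 and Tet3. The share was 99.986% for Tet1, 82.3% for Dppa3, 81.1% for Uhrf1, 88.5% for Dnmt3b and 33.7% for Tdg. Exons on the opposite strand overlapped 2.24% of the merged Dnmt3l exons (by Aire), 0.799% of those of Dnmt3a (by Dnmt3aos) and 0.255% of those of Tet2 (by Gm42567). The library kit keeps no strand, so reads from such stretches cannot be assigned to one gene.

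The levels spanned almost the whole range of oocyte transcripts. Per kilobase of merged exons, Dppa3 stood at 8095 ± 927 CPM per kb in control and 9719 ± 2639 CPM per kb in metformin libraries (SD, n = 3 each), rank 2 of 12763 tested genes with a known length. Dnmt1 followed at 217 ± 39.0 and 222 ± 29.99 CPM per kb. Behind it came Tet3, at 55.2 ± 1.25 and 55.7 ± 3.89 CPM per kb, and Uhrf1, at 46.4 ± 2.78 and 44.5 ± 6.03 CPM per kb. Dnmt1, Tet3 and Uhrf1 were thus above 97.9%, 92.5% and 90.9% of those genes.

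The de novo machinery stood lower. Dnmt3l had 12.1 ± 1.30 CPM per kb in control and 11.7 ± 1.697 in metformin libraries. Dnmt3a had 4.44 ± 1.45 and 4.30 ± 0.964 CPM per kb, and Dnmt3b 2.45 ± 0.211 and 2.70 ± 0.225 CPM per kb (SD, n = 3 each). Tet2, at 0.205 ± 0.00818 and 0.275 ± 0.0746 CPM per kb, and Tet1, at 0.229 ± 0.0228 and 0.118 ± 0.0718 CPM per kb, were above only 3.70% and 1.79% of the tested genes. Every neighbouring pair in this order was apart in every library of both groups, except Tet1 and Tet2, whose ranges overlapped in the control libraries. By group mean, Tet1 stood above Tet2 in control libraries and below it in metformin libraries. The closest pair that stayed apart was Tet3 over Uhrf1, with a ratio of mean levels of 1.19 in control and 1.25 in metformin libraries.

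**Figure D1:**
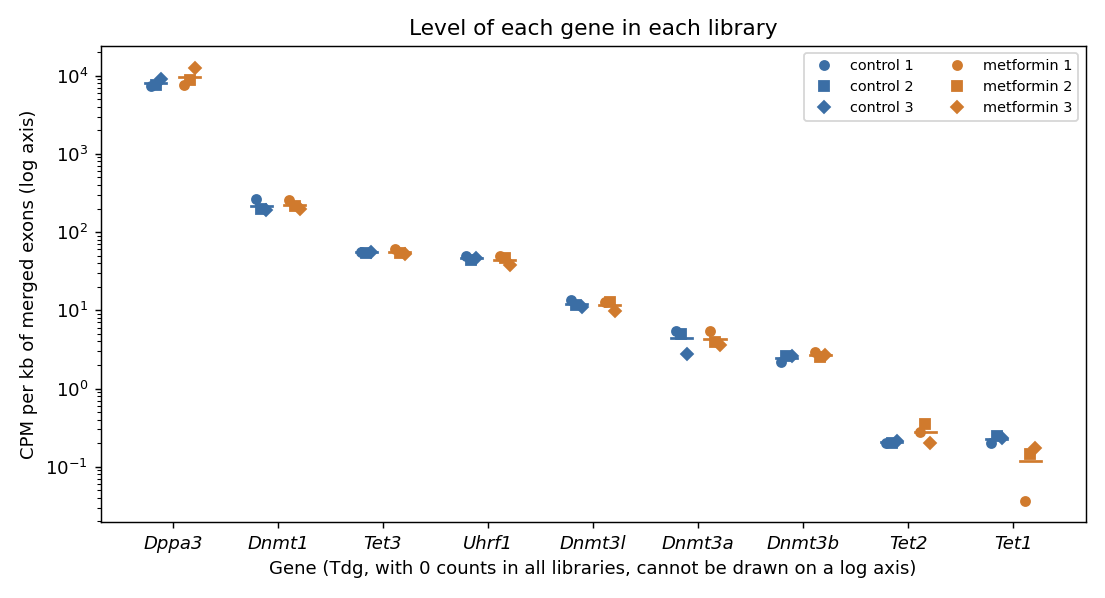
Level of each gene in each of the 6 libraries, in CPM per kb of merged exon length on a log axis. Symbols are single libraries and horizontal lines are group means (n = 3). Dppa3 lies between 7448 and 12671, and Tet1 between 0.0369 and 0.249.

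Within the families, 1 gene held most of the signal. Tet3 made up 99.2% ± 0.0536 of the summed TET level per kb in control and 99.3% ± 0.194 in metformin libraries (SD, n = 3 each). Dnmt1 made up 91.9% ± 0.778 and 92.2% ± 0.380 of the summed level of the 4 Dnmt genes. Per kb of merged exons, Dnmt3l stood above its catalytic partner Dnmt3a, by a ratio between 2.35 and 3.92 over the 6 libraries. This order rests on the merged lengths, 16642 bases over 18 transcripts for Dnmt3a and 2988 bases for Dnmt3l. In CPM without a length Dnmt3a was higher, at 73.9 against 36.1 in control and 71.5 against 35.1 in metformin libraries. Which transcripts the oocytes used is not known from counts per gene. The ratio of Dppa3 to Uhrf1, the protein that Stella acts on, was 152, 176 and 196 in controls 1 to 3 and 153, 193 and 335 in metformin 1 to 3. Metformin 3 had the highest ratio, and the other 2 metformin libraries lay within the control range.

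The deposited FPKM values gave the same order but other distances between genes. The length that the authors' FPKM values imply equalled, to within 0.1%, the sum of all distinct annotated exons for 97.4% of 10668 genes with more than 20 counts in control 1. That sum counts a base again for each distinct exon that holds it. It equalled the merged exon length for 18.4% of them, and the median ratio of implied to merged length was 1.31. Dppa3, with 2 annotated transcripts, had an implied length of 892 bases and a ratio of 1.00, whereas the ratio was 1.14 for Tet3, 1.25 for Uhrf1 and 1.26 for Dnmt1. It reached 1.48 for Dnmt3l, 1.76 for Dnmt3a, 1.76 for Dnmt3b, 1.78 for Tet2 and 1.94 for Tet1. A deposited FPKM is therefore lower, by that factor, than a value per merged exon base. The ratio of Dppa3 to Uhrf1 averaged 218 in control libraries on the FPKM scale and 175 per merged kb, and that of Dnmt3l to Dnmt3a averaged 3.44 and 2.90. The choice of length does not affect differences between libraries for 1 gene, since the same length divides all 6.

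**Figure D2:**
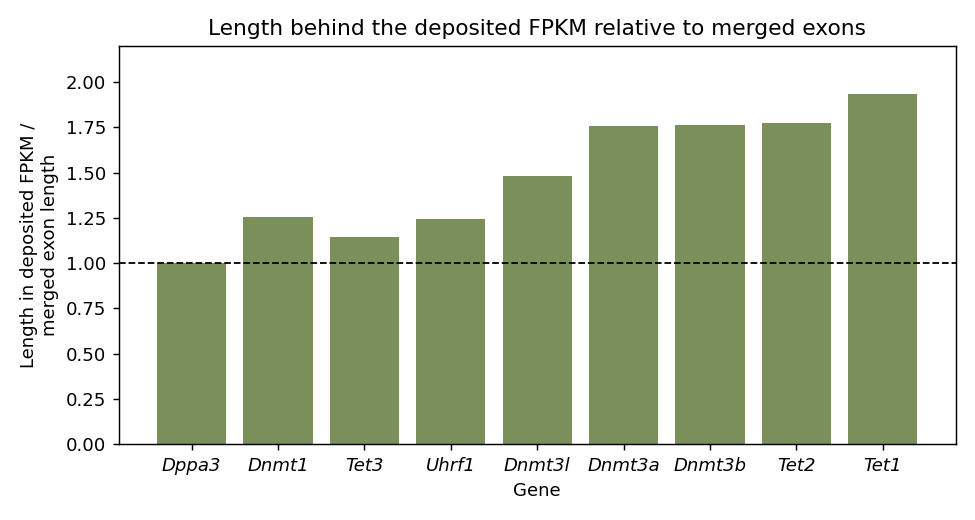
Length behind the deposited FPKM divided by the merged exon length, 1 bar per gene, with a dashed line at 1 (the lengths are equal). The ratio is 1.00 for Dppa3 and highest for Tet1, at 1.94.

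The comparison of metformin with control asked whether the transcripts of these genes differ after maturation with the drug. Of the 9 members that passed the filter on low counts, 0 passed the adjusted threshold of 0.05, by edgeR's quasi-likelihood test adjusted over 12793 genes (adjusted p = 1.00 for each). The threshold was passed by 0.0391% of all genes, 0.0235% higher and 0.0156% lower in metformin libraries. At an unadjusted p under 0.05 there was 1 member, Tet1, against 1.5% of all genes, and DESeq2 and limma-voom also called 0 members. The members' median log2 fold change was 0.01, as was that of all genes tested. With 3 libraries a group, the 95% intervals for Dnmt1, Uhrf1, Dnmt3l and Tet3 reached no further than 0.750-fold to 1.31-fold, and those of the other members were wider.

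**Figure D3:**
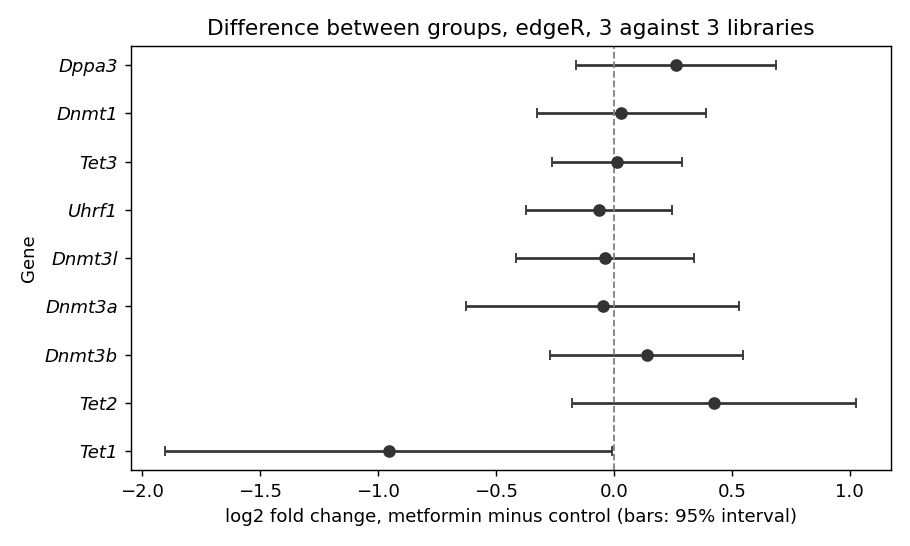
Log2 fold change of metformin against control for the 9 tested genes (points) with 95% intervals (bars) from edgeR's quasi-likelihood test, 3 libraries a group. The intervals of 8 genes include 0 (dashed line), and that of Tet1 runs from -1.90 to -0.01.

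Dnmt1 (ENSMUSG00000004099, GRCm38 chromosome 9, 20907209 to 20959888, minus strand), the methyltransferase that copies methylation, stood at 1930.3, 1452 and 1415 CPM in controls 1 to 3. The metformin libraries 1 to 3 held 1882, 1566 and 1456 CPM. In each group 1 library was high, control 1 and metformin 1, and all 3 metformin values lay within the control range. The log2 fold change was 0.03 (SE 0.164), a 1.02-fold difference with a 95% interval of 0.797 to 1.31. The counts are per gene and add up all 7 annotated transcripts, so the use of the oocyte start of Dnmt1 cannot be read from them.

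Uhrf1 (ENSMUSG00000001228, chromosome 17, 56303321 to 56323486, plus strand), which recognises hemimethylated DNA and recruits DNMT1, stood at 209, 185 and 199 CPM in controls and at 211, 196 and 161 CPM in metformin libraries 1 to 3. The groups overlapped, and metformin 3 was the lowest library. The log2 fold change was -0.06 (SE 0.141), or 0.958-fold with a 95% interval of 0.773 to 1.19. With the counts of Gm5648 added it was -0.06 (SE 0.142).

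Of the de novo genes, Dnmt3a (ENSMUSG00000020661, chromosome 12, 3806007 to 3914443, plus strand), the methyltransferase that sets most oocyte methylation, varied most within a group. It stood at 91.8, 83.7 and 46.4 CPM in controls and at 89.7, 65.5 and 59.4 CPM in metformin libraries 1 to 3. Control 3 lay below every metformin library and control 1 above every one, and the interval of the fold change ran from 0.647 to 1.45. Dnmt3l (ENSMUSG00000000730, chromosome 10, 78041947 to 78063622, plus strand), which has no catalytic activity of its own and stimulates DNMT3A, stood at 40.3, 35.3 and 32.6 CPM and at 38.4, 37.6 and 29.3 CPM. The groups overlapped and metformin 3 was again the lowest library (log2 fold change -0.04, SE 0.172).

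Dnmt3b (ENSMUSG00000027478, chromosome 2, 153649450 to 153687730, plus strand), the second de novo methyltransferase, had 107, 116 and 127 counts in controls and 158, 130 and 132 in metformin libraries 1 to 3. In CPM these were 11.2, 13.1 and 13.1 against 15.03, 12.8 and 13.5. Metformin 2 lay below controls 2 and 3, so the groups overlapped, and the log2 fold change was 0.14 (SE 0.187).

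Tet3 (ENSMUSG00000034832, chromosome 6, 83362373 to 83459084, minus strand), the oxidase of the zygote, was the steadiest member. It stood at 926, 899 and 940.3 CPM in controls and at 1004, 904 and 882 CPM in metformin libraries 1 to 3. Its SD of log2 CPM within groups was 0.0738, the lowest of the 9 tested members, against 0.437 for Dnmt3a and 0.869 for Tet1. The log2 fold change was 0.01 (SE 0.126), or 1.01-fold with an interval of 0.834 to 1.22.

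Tet1 (ENSMUSG00000047146, chromosome 10, 62804570 to 62908996, minus strand), known for its role in germ cell and stem cell demethylation, was the only member whose groups did not overlap, where 5.63% of all tested genes did not. Its counts were 30, 34 and 35 in controls and 6, 23 and 26 in metformin libraries 1 to 3. Every metformin library lay below every control library, as for 2.79% of all genes (the reverse held for 2.84%), and metformin 1 stood far below the other metformin libraries. The log2 fold change was -0.95 (SE 0.432), or 0.516-fold with a 95% interval of 0.268 to 0.996, with an unadjusted p of 0.0488 and an adjusted p of 1.00 by edgeR. Without metformin 1 the log2 fold change was -0.52 (SE 0.316). Tet2 (ENSMUSG00000040943, chromosome 3, 133463679 to 133545139, minus strand), a TET gene best known from blood cells, had 32, 30 and 35 counts in controls and 49, 60 and 33 in metformin libraries 1 to 3. In CPM metformin 3 lay within the control range, and the log2 fold change was 0.43 (SE 0.275). Both genes rest on 6 to 60 reads per library.

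Tdg (ENSMUSG00000034674, chromosome 10, 82629828 to 82650799, plus strand), which excises oxidised cytosine bases, was listed at 0 counts in all 6 libraries. A count of 0 allows a level of up to 3 counts, between 0.285 and 0.339 CPM per library. Its 3 processed pseudogenes Tdg-ps, Gm9855 and Gm5597, which matched it at 98.7% to 99.3% identity, held 0, 0 and 1 counts over all libraries, and Glt8d2, which overlaps 6.83% of its exons on the other strand, held 1. Of the 50-base words of the longest coding Tdg transcript, 33.7% occurred in no other gene's transcripts. How reads that match several of these copies were treated is not known, and the cause of the 0 was not tested. The 0 describes the table and does not show that the transcript was absent.

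Dppa3 (ENSMUSG00000046323, chromosome 6, 122626410 to 122630272, plus strand) stood at 6643, 6849.8 and 8168 CPM in controls and at 6769, 7937 and 11302 CPM in metformin libraries 1 to 3. Between 0.680% and 1.04% of all counts of a library fell on it. In CPM, metformin 3 was above every control, and the other 2 metformin libraries lay within the control range. In the deposited FPKM, metformin 2, at 8900, was also above the highest control, at 8764. The log2 fold change was 0.26 (SE 0.194), or 1.20-fold with a 95% interval of 0.894 to 1.61 (unadjusted p = 0.200, adjusted p = 1.00, edgeR). Without metformin 3 it was 0.03 (SE 0.151), and with the counts of Dppa3-ps added it was 0.26 (SE 0.194). Dppa3-ps made up 5.93% ± 0.410 of the reads of the pair in control and 5.50% ± 0.0925 in metformin libraries (SD, n = 3 each).

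Several members were highest or lowest in the same libraries. How many of all tested genes were so too was not counted, so nothing here is shown to be particular to the members. Dnmt1, Uhrf1, Dnmt3a and Dnmt3l, 4 of the 9 tested members, were each highest in control 1 among controls and in metformin 1 among metformin libraries. Some margins were small, with Uhrf1 at 209 CPM in control 1 and 199 in control 3. Dnmt3l stood at 38.4 CPM in metformin 1 and 37.6 in metformin 2. In metformin 3, 6 of the 9 were at the lowest metformin value (these 4, Tet2 and Tet3), and Dppa3 and Tet1 were at the highest. The TMM scaling factor was 0.925 in metformin 3 and 0.959 in control 3, against 1.003 to 1.06 in the other 4 libraries. The 7 blood markers, at 32.5 CPM in control 1, summed to 2.00 CPM in metformin 1, where Dnmt1 stood at 1882 CPM. Col1a1, at 25 counts in control 1, had 0 in metformin 1, whereas all 6 stromal and endothelial markers summed to 34.7 and 36.5 CPM in these libraries. Without control 1 the log2 fold changes were 0.19 for Dnmt1, -0.02 for Uhrf1, 0.13 for Dnmt3a and 0.04 for Dnmt3l, and none of the 4 passed the test. The part of the scaling and of RNA from blood or stroma in these deviations was not tested.

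**Figure D4:**
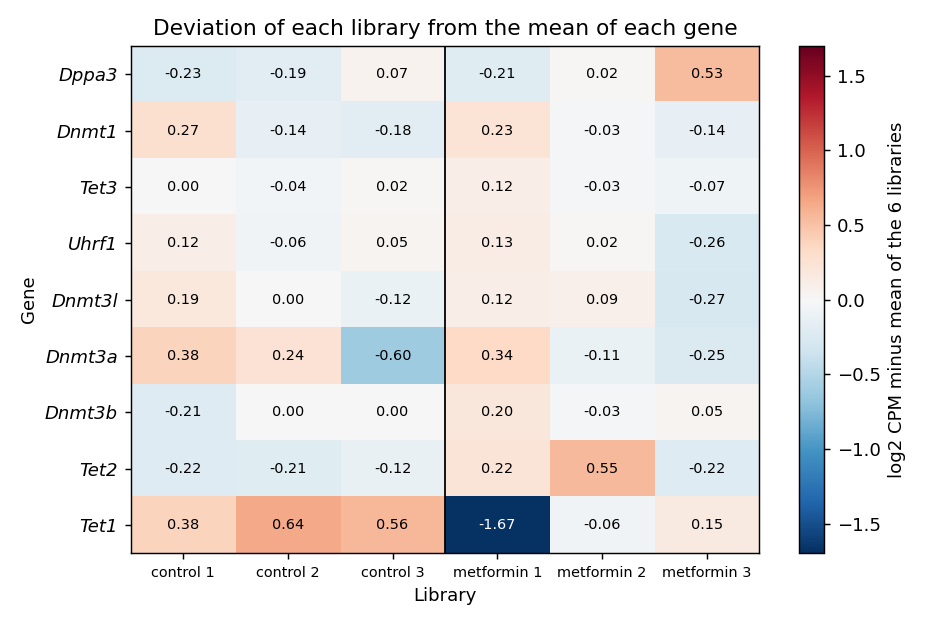
Deviation of each library from the mean of the 6 libraries, as log2 CPM (0.25 added before the logarithm), for the 9 tested genes, with controls left and metformin libraries right of the line. Red is above and blue below the mean. Tet1 in metformin 1, at -1.67, is the strongest deviation, and Dppa3 reaches 0.53 in metformin 3.

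Genes of like profile were sought among the 1761 other genes with a mean of at least 100 CPM, by the root mean square difference of log2 deviations over the 6 libraries. For Dppa3 these were Cmya5 (0.0352), Snrpd1 (0.0536) and Spag7 (0.0578), where the median gene stood at 0.261. For Dnmt1 they were Tubb2a (0.0672), Msh3 (0.0788) and Nsf (0.0938), with a median of 0.253. For Tet3 they were Mpp5 (0.0309), Spats2 (0.0314) and Rest (0.0401), with a median of 0.168. These values describe 6 libraries and carry no test.

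The ends of the transcripts were examined because the kit primes on poly(A) tails, and because maturing oocytes lengthen the tails of stored mRNAs that carry a cytoplasmic polyadenylation element, a U-rich site near the poly(A) signal. The last 100 bases of the longest coding transcript were searched on the transcript strand for TTTTAT or TTTTAAT (the element) and for AATAAA (the poly(A) signal). The element was found in 5 of the 10 members, Dnmt1, Dnmt3a, Tet1, Tet2 and Tet3, and in 17.8% of 19641 coding genes with a 3′ untranslated region of that length. A match was counted on either side of the signal. In Tet1 the match nearest the end started 13 bases from it, behind the signal, which started at 19 bases. The signal was found in 7 of the 10, all except Dnmt3b, Dnmt3l and Tdg, and in 64.6% of the genes. Of the abundant members, Dnmt1 and Tet3 carried the element, and a 30-base stretch of each is shown with the element in capitals and, for Tet3, also the signal, which shares bases with its first element. The signal of Dnmt1 lies 22 bases from the end, outside the stretch.
Dnmt1: gacttgatgtagTTTTATatgttgtaatat
Tet3: tgTTTTAATAAATTTTATatttattttttg

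The stretches start 60 bases from the annotated end in Dnmt1 and 38 bases from it in Tet3. The element itself starts 48 bases from the end in Dnmt1, and at 36 bases (TTTTAAT) and 26 bases (TTTTAT) in Tet3. The TTTTAT of Tet3 lies behind the signal, which starts at 32 bases. A match in these letters is a description of the annotated transcript, and which transcript end the oocytes used is not known from counts per gene. With a match on either side of the signal, Dnmt1, Dnmt3a, Tet1, Tet2 and Tet3 had log2 fold changes of 0.03, -0.05, -0.95, 0.43 and 0.01. Where the letters were not found, Dppa3, Dnmt3b, Dnmt3l and Uhrf1 had 0.26, 0.14, -0.04 and -0.06. None of these passed the test.

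The wider network of DNA methylation also held no call. Of 62 further genes chosen by role, 59 had a read and 48 passed the filter. Of these 48, 0 passed adjusted over all genes, by edgeR, DESeq2 or limma-voom, 25 were fitted higher and 23 lower, and the median log2 fold change was 0.01, as for all genes tested. Pcna and Ehmt1, 2 genes of the 48, had an unadjusted p under 0.05. The groups did not overlap for 5 of the 48 tested, against 5.63% of all genes.

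**Figure D5:**
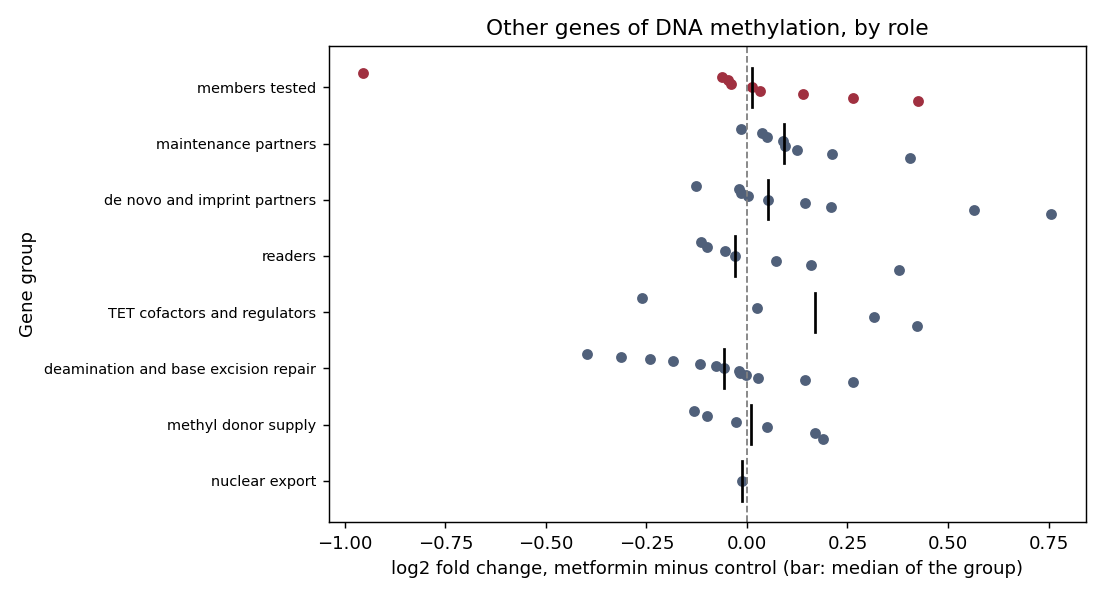
Log2 fold change of metformin against control for the 9 tested members (red) and the 48 tested genes of 7 other roles (blue), 1 point per gene, with a black bar at each group's median. The points lie between -0.95 and 0.76, and none passed the adjusted threshold.

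Among the partners of methylation copying, 7 of 8 genes had a positive log2 fold change (median 0.09), as had 6715 of all 12793 genes tested. Usp7, a deubiquitinase that binds DNMT1 and UHRF1, averaged 400.4 ± 49.0 CPM without and 436 ± 49.8 CPM with metformin (SD, n = 3 each). Pcna, the sliding clamp of replication, stood at 165 ± 8.26 and 219 ± 26.5 CPM (log2 fold change 0.41, SE 0.137, unadjusted p = 0.0120, adjusted p = 1.00, edgeR; SD, n = 3 each). All 3 metformin libraries lay above the controls. Among the partners of de novo methylation and imprints, 6 of 9 tested genes were fitted higher. Kdm1b, a histone demethylase needed for maternal imprints, stood at 352 ± 52.4 and 347 ± 72.3 CPM. Ehmt1, which with Ehmt2 places the histone mark that Stella binds, stood at 35.3 ± 11.5 and 52.3 ± 2.13 CPM (log2 fold change 0.56, SE 0.211, unadjusted p = 0.0207, adjusted p = 1.00, edgeR; SD, n = 3 each).

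Of 10 genes listed as readers 7 were tested, 3 fitted higher and 4 lower. Whether each listed gene's protein binds methylated DNA was not examined. Mbd5, of the methyl-CpG-binding domain family, stood at 62.3 ± 2.13 and 69.5 ± 11.4 CPM, and Mbd3 at 4.92 ± 0.532 and 6.39 ± 0.672 CPM (SD, n = 3 each). Of 7 genes of TET cofactors and regulators 4 were tested. Ogt, the glycosyltransferase that binds TET proteins, was both the member with the most reads and that with the smallest p, at 137 ± 7.87 and 114 ± 17.7 CPM (unadjusted p = 0.108, adjusted p = 1.00, edgeR; SD, n = 3 each).

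Of 18 genes of deamination and base excision repair 13 were tested, 3 fitted higher and 10 lower, with a median of -0.06. Over all 12793 genes tested, 6715 were fitted higher and 6078 lower, and the direction within a role was not tested. The glycosylase gene Neil3 stood at 605 ± 32.8 and 574 ± 114 CPM, and the endonuclease gene Apex1, which acts after glycosylases, at 6.00 ± 0.396 and 4.83 ± 0.460 CPM, without overlap of the groups (SD, n = 3 each; unadjusted p = 0.194, adjusted p = 1.00, edgeR). Of 8 genes of methyl donor supply 6 were tested, 3 fitted higher and 3 lower. Mat2b, a regulatory subunit of the enzyme that makes S-adenosylmethionine, stood at 3464 ± 273 and 3585 ± 479.5 CPM, and Ahcyl1 at 22.7 ± 5.44 and 25.9 ± 2.69 CPM. Xpo1, the exportin through which Stella takes UHRF1 out of the nucleus, stood at 40.7 ± 4.06 and 40.3 ± 10.6 CPM (SD, n = 3 each).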

How the data were processed

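RNA was measured in 6 mouse oocyte libraries, 3 control and 3 metformin, built with the SMART-Seq HT kit per the labels' protocols. This kit primes on poly(A) tails, amplifies by PCR and keeps neither strand nor molecular identifiers, so counting floors (3 counts) cover counting error only. CASAVA 1.8, TopHat2 2.0.6 and the build mm10 are listed in the submitters' processing notes. No counting program, annotation or rule for shared reads is named there. Per the file headers, the authors deposited raw counts and FPKM per gene and library. Counts were used as deposited, and FPKM entered no test.

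Symbols came from the GENCODE M21 tables (55141 of 55487 identifiers). The test was edgeR 4.0.16 (R 4.3.3): quasi-likelihood, robust, TMM, filterByExpr with min.count 10, all 6 libraries, no covariate, Benjamini-Hochberg adjustment over 12793 genes, threshold 0.05. The SE is the log2 fold change divided by the square root of F. CPM errors are SD over 3 libraries. The labels do not say whether samples came from separate animals, so the spread behind each p-value may be technical. Alternatives were other scalings and filters, DESeq2 1.42.0, limma-voom (limma 3.58.1), a non-robust fit, a replicate block and leaving out each library; the sums with pseudogene counts were added after seeing the data. The members, the lists and the rule for named genes were chosen with earlier results of these data known. All members are named; of each other role, the gene with the most reads and the gene with the smallest p.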

Additional observations from a re-analysis of the deposited data

How the results depend on the processing

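The count of members called was 0 and that of the wider list 0 under all 15 alternatives. The count of all genes called, 5, was 9 by DESeq2 and ranged from 5 to 12 when 1 library was left out; the cause was not tested. The order of levels per length, taken from means over both groups together, was the same per merged kb and without any 1 library. By group, Tet1 stood above Tet2 in control and below it in metformin libraries. The log2 fold changes of Dppa3, Dnmt3b, Tet1 and Tet2 kept their sign under every alternative that gave a value. Tet1 and Tet2 were not tested at a mean of at least 10 CPM. Leaving out 1 library gave ranges across 0 of -0.0822 to 0.186 for Dnmt1, -0.148 to 0.0413 for Uhrf1, -0.294 to 0.134 for Dnmt3a, -0.109 to 0.0759 for Dnmt3l and -0.0460 to 0.0492 for Tet3; among the values of opposite sign, the one nearest 0 was -0.03 for Dnmt1, 0.01 for Dnmt3a, 0.04 for Dnmt3l and -0.01 for Tet3. Leaving out 1 library moved Tet1 between -1.32 and -0.52, Tet2 between 0.22 and 0.61 and Dppa3 between 0.03 and 0.41. The lowest adjusted p of any member under any alternative was 0.997. The replicate numbers were not taken to pair the samples: deviations of same-numbered libraries from their group means correlated at 0.101, -0.0195 and 0.301 over 1762 genes, and not every library correlated best with its own number. With the replicate block 7 genes were called in place of 5, and 0 members. Depth limits Tet1 and Tet2, with 6 to 60 counts per library.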
